A study of Mus musculus with 88 samples.

Results

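The first interval of embryoid body (EB) formation was described in wild-type mouse embryonic stem cells (ESCs), by comparing the transcriptomes of day 2 with those of day 0. The members are the 6 bulk RNA samples of the 3 wild-type lines J1, JM8, and Pcl1-3 wt at these days, 3 samples a day, of 12 wild-type bulk EB samples and of 88 samples in the whole series. They were chosen by their labels alone, and where a line had several columns on 1 day their mean stood for the sample. Gene expression had been measured in ESCs that lack subunits of Polycomb Repressive Complex 2 (PRC2) and in their matched wild types while the cells left pluripotency. J1 is the wild-type match of the Eed null line, JM8 of the Jarid2 null line, and Pcl1-3 wt of the Mtf2 null line. The labels of the 6 samples name no targeted allele and no added compound.

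All 3 lines were kept as ESCs in medium with serum and leukemia inhibitory factor (LIF), the cytokine that sustains self-renewal through STAT3. Cells were left to aggregate in low-attachment plates with LIF, and LIF was withdrawn afterward. How the days were counted against this step is not given in the sources used here, so day 2 may lie at the end of aggregation, still in LIF. The names of the day 0 columns call those cells a monolayer and the names of the day 2 columns call them EBs, so that time and culture format cannot be told apart. Each line gave 1 sample a day, which makes the 3 lines the replicates, and the replicate columns of the bulk series are described as technical. Whether any of them came from a separate culture is not given in the sources used here.

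ESCs in serum and LIF resemble the naive epiblast of the blastocyst, where Nanog, Esrrb, and the Klf factors act beside the core factors Pou5f1 and Sox2. On leaving this state, epiblast cells pass through a formative state marked by Otx2, Pou3f1, Dnmt3b, and Fgf5 before they can form the primitive streak, which expresses T, Mixl1, and Eomes. FGF signaling through ERK drives this transition, LIF and BMP hold it back, and Nodal acts in both states. EBs are free-floating aggregates in which this sequence runs without added inducers.

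The 11 columns of these samples held between 3869501 and 8113699 reads. Every gene of the naive and core pluripotency lists had at least 71.5 normalized reads in each of the 6 samples. Genes that parted the lines at days 2, 4, and 7 parted them in the same direction at day 0 for 106 of 107 genes between J1 and JM8, 72 of 72 between J1 and Pcl1-3 wt, and 37 of 37 between JM8 and Pcl1-3 wt, so the line labels of day 0 hold. The 2 columns of day 0 in JM8 and in Pcl1-3 wt were 1 library each, read 2 times, whereas the 2 columns of day 2 were separate libraries that differed by more than counting error (chi-square per degree of freedom 1.80 in J1, 12.9 in JM8, and 18.7 in Pcl1-3 wt). Ratios of day 2 to day 0 also followed base composition and transcript length. The median log2 ratio of tested genes fell from 0.32 in the lowest decile by GC content to -0.23 in the highest decile, and this course was steepest in J1 (0.38 to -0.43) and shallow in Pcl1-3 wt (0.12 to -0.03). By transcript length it fell from 0.33 for the shortest to -0.24 for the longest decile, with J1 nearly flat (0.07 to -0.04) and Pcl1-3 wt steepest (0.55 to -0.39). The part of these trends in single results was not tested, and an added fit that adjusts each sample for GC content and length is given beside the results it changes.

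**Figure D1:**
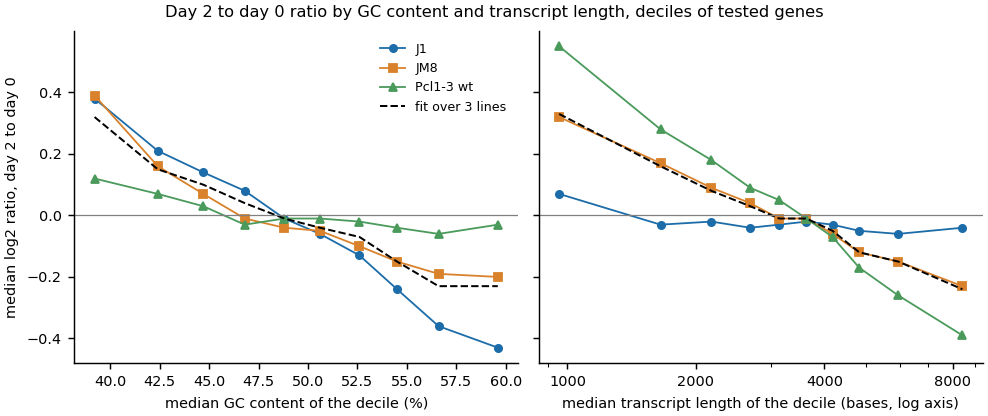
Median log2 ratio of day 2 to day 0 (vertical axis) in deciles of the tested genes, ordered by GC content in percent (left) or by length in bases of the longest transcript (right, log axis), for each line and for the fit over the 3 lines. The GC course runs from 0.38 to -0.43 in J1, and the length course from 0.55 to -0.39 in Pcl1-3 wt.

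Expression changed widely within 2 days. Of 12709 genes tested, 4477 (35.2%) differed between day 2 and day 0, 2203 (17.3%) of them higher and 2274 (17.9%) lower at day 2 (limma on log2 of normalized reads + 2, with line as a block, at a Benjamini-Hochberg adjusted p under 0.05). The change had the same sign in all 3 lines for 4455 of the 4477 genes. The calls rest on these same ratios, so this agreement follows largely from the calling and is no separate support. Of the called genes, 1231 (9.69% of those tested) changed by more than 1 on the log2 scale, 457 (3.60%) up and 774 (6.09%) down. The median of all genes tested lay at -0.01. Where at least 50 normalized reads were required, 2011 genes were called higher and 1563 lower, so the balance of directions depended on this minimum. With GC content and length adjusted, 4240 of 12678 genes (33.4%) were called, 2404 (19.0%) higher and 1836 (14.5%) lower, and 3104 genes were called in the same direction by both fits. The count depended on the design: it was 317 without the line block, 2144 without JM8, 1926 with the days 4 and 7 in the fit, and 2837 with the first column of each sample alone. The limma p-values rested mostly on variance pooled over genes (6.363 prior against 2 residual degrees of freedom), and fits without 1 line kept only 2 lines. Gm10222, with log2 ratios of 9.61 in J1 and 3.01 in JM8, had adjusted p = 1.38e-197 without Pcl1-3 wt. Calls gained or lost in such fits are therefore given as a description. The lists described next are read against the 17.3% of all genes called higher and the 17.9% called lower, and without the line block no list had more than 2 calls in 1 direction. In bulk RNA, fewer cells of a type and less RNA per cell cannot be told apart.

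Trh, Myc, and Ina were among the genes that rose most. Trh (chr6:92242061-92244650, GRCm38), which encodes the precursor of thyrotropin-releasing hormone, had 464 normalized reads in J1, 498 in JM8, and 200 in Pcl1-3 wt at day 0, and 3797, 3570, and 2306 at day 2. The groups did not overlap, and the log2 fold change was 3.13 ± 0.15 (SE, n = 3 lines, limma adjusted p = 0.000258). By day 4 it stood at 370, 1234, and 693 normalized reads, below day 2 in each line. Myc (chr15:61985391-61990374), the proto-oncogene that drives growth and proliferation, went from 20.5, 84.1, and 24.5 to 195, 282, and 154 normalized reads (2.47 ± 0.25, adjusted p = 0.00171). Ina (chr19:47014698-47025327), a neuronal intermediate filament, went from 54.9, 176, and 58.5 to 399, 708, and 354 (2.46 ± 0.17, adjusted p = 0.00109). For Myc and Ina, too, every day 2 sample lay above every day 0 sample. The vertnin gene Vrtn (2.39 ± 0.32), the interferon-inducible GTPase Irgm1 (2.30 ± 0.22), the leucine-rich repeat gene Lrrc17 (2.10 ± 0.31), and the lysophosphatidic acid receptor Lpar4 (2.06 ± 0.31) rose without overlap between the days. Aoah, an acyloxyacyl hydrolase, rose by 2.10 ± 0.33, with groups that overlapped because JM8 was already high at day 0 (73.1 normalized reads). The largest fold change belonged to Gm10222 (4.75 ± 1.21, adjusted p = 0.0188), an unprocessed pseudogene on chromosome 1 that was listed at 0 in J1 at day 0 and at 986 to 1563 reads at day 2. It may share reads with near-identical mitochondrial sequence, so its level is uncertain, and it did not pass after the adjustment for GC content and length (adjusted p = 0.0549).

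Fosb, Txnip, and Stra8 were among the genes that fell most. Fosb (chr7:19302696-19310051), an AP-1 factor of the immediate early response, went from 17.7 in J1, 91.5 in JM8, and 49.9 in Pcl1-3 wt to 3.96, 1.98, and 2.02 normalized reads, a log2 fold change of -3.32 ± 0.49 (adjusted p = 0.00295). Txnip (chr3:96557957-96561883), which restrains glucose uptake and binds thioredoxin, was the most abundant of these genes. It had 4685, 3033, and 3806 normalized reads at day 0 and 977, 815, and 834 at day 2 (-2.11 ± 0.14, adjusted p = 0.000758). Neither gene's groups overlapped. Stra8, which licenses meiosis and responds to retinoic acid, went from 38.2, 54.4, and 69.7 to 5.67, 8.27, and 16.8 normalized reads (-2.26 ± 0.24, adjusted p = 0.00171), and lay under 1 read in each line at day 4. The zinc finger gene Zc3h6 fell by 2.60 on the log2 scale (SE 0.19), the aminotransferase-like gene Got1l1 by 2.17 (0.18), and the dynamin gene Dnm1 by 2.16 (0.19), all without overlap. Catsperg1, a sperm calcium channel subunit (-2.28 ± 0.23), and the class I histocompatibility gene H2-Q7 (-2.07 ± 0.21) fell too, but both have close copies between which reads may be split. Micall2 (-2.15 ± 0.26) and the transglutaminase gene Tgm2 (-2.03 ± 0.28) fell in every line while the days overlapped between lines, because JM8 at day 0 (32.3 and 43.3 normalized reads) was already below another line at day 2.

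**Figure D2:**
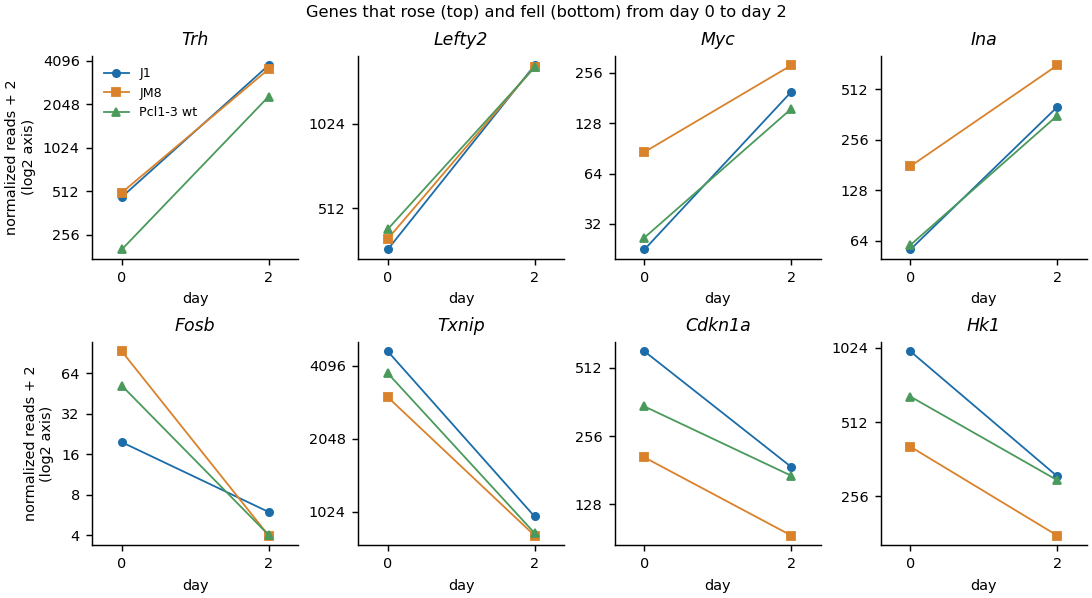
Normalized reads + 2 (vertical, log2 axis) at day 0 and day 2 in the 3 wild-type lines, 1 point per sample, for 4 genes that rose (top) and 4 that fell (bottom). Trh reaches 2306 to 3797 reads from at most 498, and Txnip drops from at least 3033 to at most 977.

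Few naive pluripotency genes passed the test at day 2. Of 14 genes, all tested, 2 rose (14.3%), 1 fell (7.14%), and 11 did not pass, with a median log2 fold change of 0.09. Without J1, 6 rose and 3 fell. Nanog had 2482 in J1, 1919 in JM8, and 2789 in Pcl1-3 wt at day 0 and 2111, 1977, and 4730 normalized reads at day 2 (0.19 ± 0.19, adjusted p = 0.469). Esrrb went from 2672, 2349, and 2709 to 2537, 1685, and 2584 (-0.21 ± 0.15, adjusted p = 0.291), and Klf4 from 605, 903, and 881 to 751, 502, and 726 (-0.27 ± 0.20, adjusted p = 0.314). The days overlapped for all 3 factors, and Tbx3 (adjusted p = 0.268), Zfp42 (0.0703), and Prdm14 (0.423) did not pass either. The lines did not move alike. Without J1, Klf4 (-0.56, adjusted p = 0.00108) and Tbx3 (-0.59, 0.00276) passed as lower and Nanog (0.40, 0.0204) as higher at day 2. Zfp42 passed as higher without JM8 (0.78, 0.0283) and without Pcl1-3 wt (0.57, 0.0149). Such passes did not require the 2 remaining lines to move alike: the log2 ratio of Nanog was 0.04 in JM8 and 0.76 in Pcl1-3 wt. Tfcp2l1, a naive factor downstream of LIF, fell from 2799, 3092, and 3681 to 1806, 1848, and 2713 normalized reads (-0.60 ± 0.14, adjusted p = 0.0125). Its call was lost without JM8 (adjusted p = 0.176) and with GC content and length adjusted (0.0778). Nr0b1, which encodes the orphan receptor Dax1, rose from 113, 356, and 185 to 331, 497, and 483 (1.13 ± 0.20, adjusted p = 0.00538), while the receptor gene Nr5a2 rose by 0.44 ± 0.12 (adjusted p = 0.0237), a call lost without JM8 (0.14) or Pcl1-3 wt (0.0599). At day 4, 13 of the 14 genes lay below day 2 in each line, Tbx3 being the exception. Esrrb then had 106, 556, and 1372 normalized reads and Klf4 45.9, 88.2, and 93.6. What share of all genes lay below day 2 at day 4 was not counted.

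Core pluripotency genes rose in part. Of 12 genes, 6 rose (50%), none fell, and 6 did not pass (median 0.45). The number that rose was 1 with all 12 samples in the fit, 2 with the first column of each sample, and 3 without JM8. The TGF-β ligand gene Gdf3 went from 206, 271, and 270 to 380, 482, and 554 normalized reads (0.91 ± 0.12, adjusted p = 0.00228), and every day 2 sample lay above every day 0 sample. Dppa2 rose by 0.79 ± 0.17, Lin28a, a repressor of let-7 processing, by 0.67 ± 0.13, and the zinc finger gene Sall4 by 0.59 ± 0.14, the last with adjusted p = 0.0602 without JM8. Pou5f1 went from 4177, 2707, and 2316 to 4083, 3984, and 3443 (0.37 ± 0.17, adjusted p = 0.122), and it passed without J1 (0.56, adjusted p = 0.00062) and with GC content and length adjusted (0.41, 0.0304). Sox2 stood at 1818, 2308, and 2130 and then at 1922, 2239, and 1863 normalized reads (-0.05 ± 0.13, adjusted p = 0.778).

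Most formative epiblast genes rose. Of 13 tested genes, 10 rose (76.9%), none fell, and 3 did not pass, with a median log2 fold change of 1.19 against -0.01 over all genes. With GC content and length adjusted 11 rose and none fell, but the number that rose was 1 with all 12 samples in the fit, 5 with the first column of each sample, and 1 without the line block. Medians within the lines were 1.52 in J1, 1.17 in JM8, and 0.47 in Pcl1-3 wt. Foxd3 (chr4:99656299-99658622), a forkhead factor that opens epiblast enhancers, went from 19.6, 35.1, and 48.5 to 159, 104, and 150 normalized reads (2.00 ± 0.28, adjusted p = 0.00241). Dnmt3b, the de novo methyltransferase of the epiblast, went from 431, 1236, and 553 to 2051, 2776, and 1036 (1.44 ± 0.23, adjusted p = 0.00386), where JM8 at day 0 exceeded Pcl1-3 wt at day 2. Fgf15 (1.53 ± 0.32) and the zinc finger gene Zic2 (1.34 ± 0.26) rose as well. Pou3f1, a POU factor of the primed epiblast, rose from 46.5, 51.8, and 55.6 to 137, 194, and 67.3 normalized reads (1.22 ± 0.29, adjusted p = 0.0138). Otx2, its partner at formative enhancers, rose from 219, 72.8, and 6.28 to 387, 191, and 9.50 (0.89 ± 0.21, adjusted p = 0.0139), so the lines lay farther apart than the days. The methyltransferase gene Dnmt3a rose by 0.64 ± 0.17. Without JM8 the calls of Pou3f1 (adjusted p = 0.0537), Otx2 (0.17), and Dnmt3a (0.132) were lost. Fgf5, the classical marker of the late epiblast, was too low to be tested, with 1.86, 0.375, and 0 normalized reads at day 0, at most 17.2 at day 2, and 137, 152, and 87.5 at day 4.

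**Figure D3:**
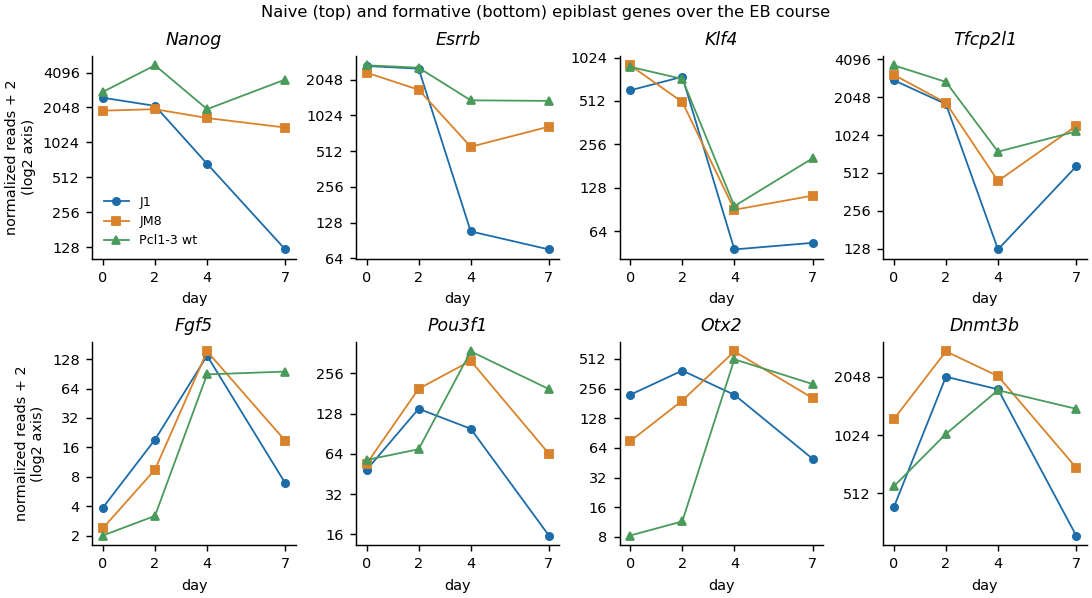
Normalized reads + 2 (vertical, log2 axis) at days 0, 2, 4, and 7 in the 3 wild-type lines, 1 point per sample, for 4 naive genes (top) and 4 formative genes (bottom). Klf4 stands at 502 to 751 reads at day 2 and at 45.9 to 93.6 at day 4, and Dnmt3b is higher at day 2 in each line.

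Most regulators of later lineages were low at both days. In the primitive streak list only Eomes and Nodal of 15 genes were abundant enough to be tested, and 13 genes lay under 10 normalized reads in all 3 lines at day 2. T had at most 5.03 reads and Mixl1 at most 7.36 at day 2, against 830 and 548 in J1 at day 4, when Pcl1-3 wt had 5.06 and 3.37. Eomes stood at 28.9, 56.3, and 46.6 and then at 31.2, 29.4, and 34.4 (-0.40 ± 0.24, adjusted p = 0.225), and it was lower without J1 (-0.65, 0.0241). Of 9 primitive endoderm genes tested, 1 rose and 3 fell. The basement membrane collagens Col4a2 (-1.17 ± 0.18) and Col4a1 (-0.79 ± 0.13) and the nuclear receptor gene Hnf4a (-1.20 ± 0.35) fell, and the endocytic receptor gene Cubn rose (1.01 ± 0.33). With GC content and length adjusted only Col4a2 of the 3 still fell, and without JM8 neither Hnf4a (adjusted p = 0.174) nor Cubn (0.262) passed. Gata4, Gata6, and Sox17, which specify this lineage, were not tested and lay at 14.5 normalized reads or less at day 2. Of 6 trophoblast genes tested, 3 fell and none rose: the simple keratins Krt19, from 287, 77.7, and 88.8 to 51.1, 30.9, and 41.2 (-1.60 ± 0.26, adjusted p = 0.00423), and Krt18 (-1.17 ± 0.32), and the AP-2 factor gene Tfap2c (-0.66 ± 0.17, with adjusted p = 0.0937 without JM8). Cdx2, the trophoblast regulator, was listed at 0 in all 3 lines at day 2. Of 6 neural genes tested, 2 rose, Tubb3, which encodes neuronal tubulin, from 137, 231, and 201 to 360, 370, and 430 (1.05 ± 0.16, adjusted p = 0.00309), and Pax6, from 15.8, 4.98, and 9.07 to 22.5, 20.7, and 18.0 (1.00 ± 0.32, adjusted p = 0.0415, lost without JM8 at 0.321). Sox1, the earliest marker of neural fate, lay at 8.93 reads or less at day 2.

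Both Lefty genes, 3 Id genes, and the ERK feedback genes Spry4 and Dusp6 were among the signaling genes that rose. Lefty2 (chr1:180893108-180899103), an antagonist of Nodal that Nodal itself induces, had 364 in J1, 397 in JM8, and 430 in Pcl1-3 wt at day 0 and 1646, 1626, and 1617 normalized reads at day 2 (2.04 ± 0.12, adjusted p = 0.000654). The days did not overlap, and the lines lay close together at both. Its neighbor Lefty1 (chr1:180935022-180938400) went from 172, 272, and 453 to 628, 607, and 763 (1.25 ± 0.20, adjusted p = 0.00348). At day 4, Lefty2 stood at 69.9, 202, and 219, below its day 0 level in each line. Nodal itself rose from 138, 148, and 157 to 185, 188, and 272 (0.52 ± 0.15, adjusted p = 0.028), a call lost without JM8 (0.0894) or without Pcl1-3 wt (0.146). The type I receptor gene Acvr1b fell (-0.68 ± 0.13, adjusted p = 0.0646 without JM8). In all, 3 of the 11 genes of the Nodal list rose (27.3%) and 3 fell, and 5 rose and 1 fell with GC content and length adjusted, whereas none rose with all 12 samples in the fit. Among BMP genes, 3 of 9 rose (33.3%) and none fell, and all 3 were Id genes, which encode inhibitors of basic helix-loop-helix factors. Id1 went from 112, 75.5, and 14.5 to 256, 306, and 78.7 normalized reads (1.82 ± 0.22, adjusted p = 0.00189), Id2 rose by 1.16 ± 0.21, and Id3 by 1.14 ± 0.23.

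Of 15 FGF and ERK genes, 3 rose (20.0%, near the share over all genes) and 1 fell, and after the adjustment 5 rose and none fell. With all 12 samples in the fit none rose, and with the first column 1 did. Spry4, an inhibitor induced by ERK, went from 263, 448, and 185 to 1205, 839, and 432 normalized reads (1.44 ± 0.22, adjusted p = 0.00339). The ETS factor gene Etv1 rose by 1.20 ± 0.37 and the ERK phosphatase gene Dusp6 by 0.59 ± 0.15, whereas the receptor gene Fgfr1 fell by 0.47 on the log2 scale (SE 0.13). Without JM8, neither Dusp6 (adjusted p = 0.152) nor Fgfr1 (0.125) passed. The other feedback inhibitor genes of this list, Spry1, Spry2, Spred1, Spred2, and Dusp4, did not pass in the main fit. Genes of the LIF pathway went both ways: 2 of 13 rose (15.4%) and 5 fell (38.5%), and 3 rose and 2 fell after the adjustment. The number that fell was 1 with all 12 samples and 1 without JM8. Socs3, the feedback inhibitor of STAT3, went from 912, 862, and 839 to 742, 671, and 573 normalized reads (-0.40 ± 0.12, adjusted p = 0.0341). All 3 day 2 samples of Socs3 lay below day 0, but the call was lost with GC content and length adjusted (0.37), without JM8 (0.207), and without Pcl1-3 wt (0.167). At day 4 Socs3 had at most 125 reads in any line. The kinase genes Pim1 (-0.83 ± 0.13) and Jak1 (-0.65 ± 0.13, adjusted p = 0.0789 without JM8) fell, and Gbx2, a homeobox gene downstream of STAT3, rose from 20.5, 83.5, and 34.4 to 75.2, 162, and 92.6 (1.37 ± 0.20, adjusted p = 0.00307), as did the receptor signaling inhibitor gene Socs2 (0.78 ± 0.13). Among 8 Wnt targets, 3 rose and 2 fell. Notum, a secreted Wnt inhibitor, went from 25.1, 74.3, and 51.8 to 156, 245, and 205 (2.06 ± 0.19, adjusted p = 0.00171), and Tcf7l1, a repressor of Wnt targets, rose by 0.63 ± 0.16. Nkd1 fell by 0.96 on the log2 scale (SE 0.29). That call was lost without J1 (adjusted p = 0.0867), without JM8 (0.139), and with GC content and length adjusted (0.0867). Axin2, the most used Wnt readout, did not pass (-0.15 ± 0.21, adjusted p = 0.586).

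**Figure D4:**
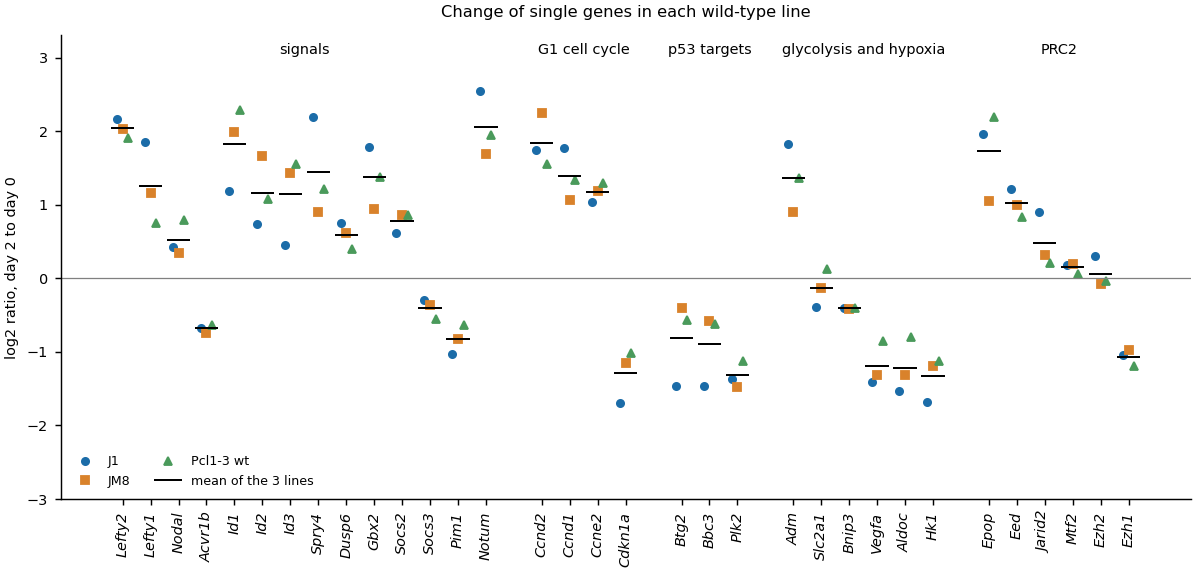
Log2 ratio of day 2 to day 0 (vertical axis) in each of the 3 lines (points) with their mean (short black lines) for named genes of 5 groups. Lefty2 is near 2.04 in each line, and Spry4 and the Id genes show wider spread.

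The cyclin genes Ccnd1, Ccnd2, and Ccne2 rose, and 8 of 14 p53 targets fell. Of 14 G1 genes tested, 6 rose (42.9%) and 4 fell (28.6%), and 3 rose and 3 fell with all 12 samples in the fit. Ccnd2, a D-type cyclin, went from 34.4, 39.2, and 97.0 to 120, 192, and 289 normalized reads (1.84 ± 0.18, adjusted p = 0.00171), and Ccnd1, also a Wnt target, from 182, 340, and 124 to 628, 714, and 318 (1.39 ± 0.16, adjusted p = 0.00171). The E-type cyclin gene Ccne2 rose from at most 142 reads to at least 168 (1.17 ± 0.14, adjusted p = 0.00184). All day 2 samples of Ccnd2 and Ccne2 lay above day 0. Cdkn1a (chr17:29090976-29100727), the CDK inhibitor p21 and a p53 target, went from 604, 204, and 344 to 185, 91.1, and 169 (-1.29 ± 0.16, adjusted p = 0.00208). The other 3 G1 genes that fell, named after their values were seen, were Rb1 (-1.06), Rbl1 (-0.64), and Rbl2 (-1.17), the retinoblastoma family that restrains entry into S phase. Apart from the cyclin genes above, the G1 genes that rose are not named here, so no direction is read for the list as a whole. Of the 14 p53 targets, 8 fell (57.1%), none rose, and 6 did not pass (median -0.51), and 8 fell and none rose with GC content and length adjusted. The number that fell was 2 with all 12 samples and 5 with the first column. Plk2, a kinase induced by p53, fell from 336, 113, and 152 to 129, 39.1, and 68.9 (-1.32 ± 0.15, adjusted p = 0.0018). The proapoptotic gene Bbc3, which encodes Puma, fell by 0.89 on the log2 scale (SE 0.21), and the antiproliferative gene Btg2 by 0.81 (SE 0.21). At day 4, 11 of the 14 genes lay above day 2 in each line. The share over all genes was not counted, so this is not read as a trait of the list.

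Glycolytic and hypoxia-induced genes moved mostly down among those called. Of 28 tested, 12 fell (42.9%), 1 rose (3.57%), and 15 did not pass (median -0.35), and 11 fell and 1 rose after the adjustment. The number that fell was 7 with all 12 samples, 8 without JM8, and 21 with the last column of each sample. Hk1, which encodes hexokinase at the entry of glycolysis, went from 987, 405, and 647 to 307, 176, and 296 normalized reads (-1.33 ± 0.15, adjusted p = 0.00171). Aldoc, an aldolase, went from 568, 297, and 327 to 195, 118, and 187 (-1.22 ± 0.16, adjusted p = 0.00227), and the angiogenic ligand gene Vegfa from 659, 209, and 259 to 246, 83.2, and 143 (-1.19 ± 0.15, adjusted p = 0.00215). Hk1 and Aldoc did not overlap between the days, whereas J1 at day 2 exceeded JM8 at day 0 for Vegfa. The 1 gene that rose was Adm, the hypoxia-induced peptide adrenomedullin, from 11.2, 3.85, and 5.21 to 44.5, 8.90, and 16.5 (1.36 ± 0.31, adjusted p = 0.013). Bnip3, a mitophagy receptor, fell by 0.41 on the log2 scale (SE 0.12), with adjusted p = 0.233 without JM8 and 0.0722 without Pcl1-3 wt. The glucose transporter gene Slc2a1 did not pass (-0.13 ± 0.15, adjusted p = 0.509). At day 4, 17 of the 28 genes lay above day 2 in each line. Here, too, the share over all genes was not counted.

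The promoters of these genes were read for ACGTG and GCGTG, the core of the element bound by hypoxia-inducible factors, on both strands and in windows from 250 bases before to 50 bases after the start site (RefSeq, GRCm38.p6). At least 1 of these motifs was in 14380 of 32851 promoters of all genes (43.8%), in 11 of 15 promoters of the members that fell (73.3%), and in 16 of 19 promoters of the members that did not pass (84.2%), and the share was higher among the members that did not pass than among those that fell. Windows of the 2 members that fell most and of the 1 that rose are given to show these matches, with the motif or its reverse complement in capitals. Hk1 and Aldoc have a second window each, with 0 and 1 matches.

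Hk1 promoter, chr10:62340372-62340671, minus strand: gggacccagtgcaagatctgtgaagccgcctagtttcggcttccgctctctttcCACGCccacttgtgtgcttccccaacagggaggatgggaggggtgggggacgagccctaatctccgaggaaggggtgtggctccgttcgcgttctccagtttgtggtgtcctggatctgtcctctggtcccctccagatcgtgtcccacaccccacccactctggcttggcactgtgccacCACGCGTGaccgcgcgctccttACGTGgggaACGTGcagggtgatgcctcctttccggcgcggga

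Aldoc promoter, chr11:78322823-78323122, plus strand: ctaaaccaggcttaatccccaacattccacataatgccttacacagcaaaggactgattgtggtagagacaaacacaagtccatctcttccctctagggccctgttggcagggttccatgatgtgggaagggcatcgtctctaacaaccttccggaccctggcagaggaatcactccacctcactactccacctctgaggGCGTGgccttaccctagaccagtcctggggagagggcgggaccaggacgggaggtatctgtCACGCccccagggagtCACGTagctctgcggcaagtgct

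Adm promoter, chr7:110627407-110627706, plus strand: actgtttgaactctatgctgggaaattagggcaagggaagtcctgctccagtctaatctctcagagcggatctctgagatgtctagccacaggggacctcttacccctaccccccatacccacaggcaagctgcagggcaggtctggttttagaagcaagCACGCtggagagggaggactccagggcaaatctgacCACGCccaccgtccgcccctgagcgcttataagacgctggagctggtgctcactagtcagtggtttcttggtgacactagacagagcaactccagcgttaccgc

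In the window of Hk1, ACGTG occurs 2 times and GCGTG 3 times. In that of Aldoc the counts are 1 and 2, and in that of Adm 0 and 2.

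Sterol genes went both ways. Of 22 sterol synthesis genes, 6 fell (27.3%) and 2 rose (median -0.25). Without JM8 none fell, and with all 12 samples 2 did. Insig1, which holds back sterol synthesis, fell by 0.60 on the log2 scale (SE 0.12), and the sterol transporter gene Stard4 by 0.58 (SE 0.12), while the isomerase gene Idi1 rose by 0.80 ± 0.12. Without JM8, the calls of Insig1 (adjusted p = 0.0868) and Stard4 (0.0975) were lost. Of 16 genes of the amino acid response, 1 rose, the transcription factor gene Atf5 (0.78 ± 0.20, adjusted p = 0.0185, and 0.11 without JM8). Asns, asparagine synthetase, did not pass (-0.25 ± 0.13, adjusted p = 0.156). With GC content and length adjusted, 3 genes of this list rose and 2 fell, and Asns passed as lower (-0.41, adjusted p = 0.0239).

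Some YAP and SRF targets and matrix genes fell. Of 14 YAP and SRF targets tested, 5 fell (35.7%) and none rose, and 3 fell and 1 rose after the adjustment. With all 12 samples 2 fell. The matricellular genes Ccn1, from 151, 63.6, and 89.0 to 19.7, 32.7, and 55.7 normalized reads (-1.46 ± 0.38, adjusted p = 0.019), and Ccn2, from at least 116 to at most 85.7 (-0.83 ± 0.19, adjusted p = 0.0133), had no day 2 sample above a day 0 sample. The angiomotin gene Amotl1 (-0.96 ± 0.17, adjusted p = 0.0568 after the adjustment) and the YAP partner gene Tead1 (-0.65 ± 0.12, adjusted p = 0.0606 without JM8) fell too. Of 10 adhesion genes tested, 2 fell and 1 rose. Cldn7, a tight junction claudin, fell from 193, 173, and 47.1 to 58.5, 66.8, and 20.8 (-1.38 ± 0.18, adjusted p = 0.00225), and Cdh2, N-cadherin, rose from at most 38.8 to at least 40.7 (1.24 ± 0.21, adjusted p = 0.00435). The P-cadherin gene Cdh3 fell by 0.43 on the log2 scale (SE 0.14), a call lost without J1 (adjusted p = 0.0776), without JM8 (0.186), and after the adjustment (0.298). Of the 15 fibroblast markers, 5 were tested, and 3 of them fell: Pdgfrb (-1.90 ± 0.29), Fbln2 (-1.33 ± 0.23), and Col5a1 (-0.86 ± 0.17, adjusted p = 0.218 after the adjustment). The list summed to 196 to 472 normalized reads at day 0 and 113 to 232 at day 2, Col1a1 had 11.1 to 30.7 and Col1a2 at most 11.2 reads in the 6 samples, and Lum was at 0 in all of them, so these markers were lower beside the falls above. Their part in those falls was not tested. Thbs1 and Tagln of the YAP and SRF list, chosen after the values were seen, set J1 at day 0 apart. Thbs1 had 194 reads there and 1.88 to 5.65 in the other 5 samples, and Tagln 89.4 against 5.50 to 9.66. The part of these genes' source in the ratios of J1 was not tested. Of 13 blood and endothelium markers, 2 were tested. Pecam1, which naive ESCs also express, fell from 1136, 961, and 948 to 546, 496, and 567 (-0.91 ± 0.12, adjusted p = 0.0023). Cd34 rose by 0.87 ± 0.24, with adjusted p = 0.0544 without JM8, 0.0654 without Pcl1-3 wt, and 0.0572 after the adjustment.

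Genes of PRC2, which methylates lysine 27 of histone H3, had shares of calls near those over all genes. Of 13 tested, 3 rose (23.1%), 2 fell (15.4%), and 8 did not pass. Epop, an accessory subunit of PRC2.1, went from 405, 622, and 529 to 1582, 1291, and 2419 normalized reads (1.73 ± 0.21, adjusted p = 0.00189), and the core subunit gene Eed from 557, 715, and 602 to 1297, 1435, and 1074 (1.02 ± 0.13, adjusted p = 0.00208). The methyltransferase gene Ezh1 fell from 727, 561, and 703 to 353, 284, and 307 (-1.07 ± 0.12, adjusted p = 0.00173). For these 3 genes the days did not overlap. The third gene that rose, Rbbp4 (0.43, named after its values were seen), encodes a histone-binding core subunit. The Polycomblike gene Phf1 fell by 1.12 on the log2 scale (SE 0.32), a call lost without J1 (adjusted p = 0.0604) and after the adjustment (0.0622). The genes mutated in the matched lines other than Eed did not pass: Mtf2 stood at 2126, 1539, and 2134 and then at 2405, 1763, and 2229 (0.15 ± 0.13, adjusted p = 0.396), and Jarid2 at 2007, 2571, and 2191 and then at 3755, 3220, and 2531 (0.48 ± 0.17, adjusted p = 0.0559). Jarid2 passed after the adjustment (0.77, adjusted p = 0.00594) and without Pcl1-3 wt (0.61, 0.0243), and Ezh2 did not pass (0.06 ± 0.13, adjusted p = 0.719). Of 9 genes of DNA methylation, 3 rose, Dnmt3b, Dnmt3a, and the glycosylase gene Tdg (0.44 ± 0.13, with adjusted p = 0.153 without JM8). Dnmt3l, the cofactor of both methyltransferases, did not pass (adjusted p = 0.993). Of 11 germline genes, 1 fell, Dazl, an RNA-binding protein gene of germ cells, from 198, 62.3, and 120 to 71.2, 49.2, and 77.7 (-0.80 ± 0.23, adjusted p = 0.0272), and 5 fell after the adjustment.

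In the list of stress and RNA quality genes, 7 of 12 rose (58.3%) and none fell, and 6 rose after the adjustment. The mitochondrial transcripts mt-Cytb (1.72 ± 0.19) and mt-Nd1 (1.49 ± 0.21) were higher in each line, mt-Cytb with 4541, 9281, and 6092 normalized reads at day 0 and 13167, 32435, and 21293 at day 2. Hmox1, heme oxygenase, went from 261, 305, and 196 to 762, 619, and 419 (1.21 ± 0.14, adjusted p = 0.00184), and the chaperone gene Hsph1 rose by 1.16 ± 0.14. Their part in the other results was not tested. The 2-cell-like genes were too low to be tested except for 1 that did not pass, and summed to 236 normalized reads in J1 at day 0 and 449 at day 2 against 5.67 to 33.1 in the other lines.

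**Figure D5:**
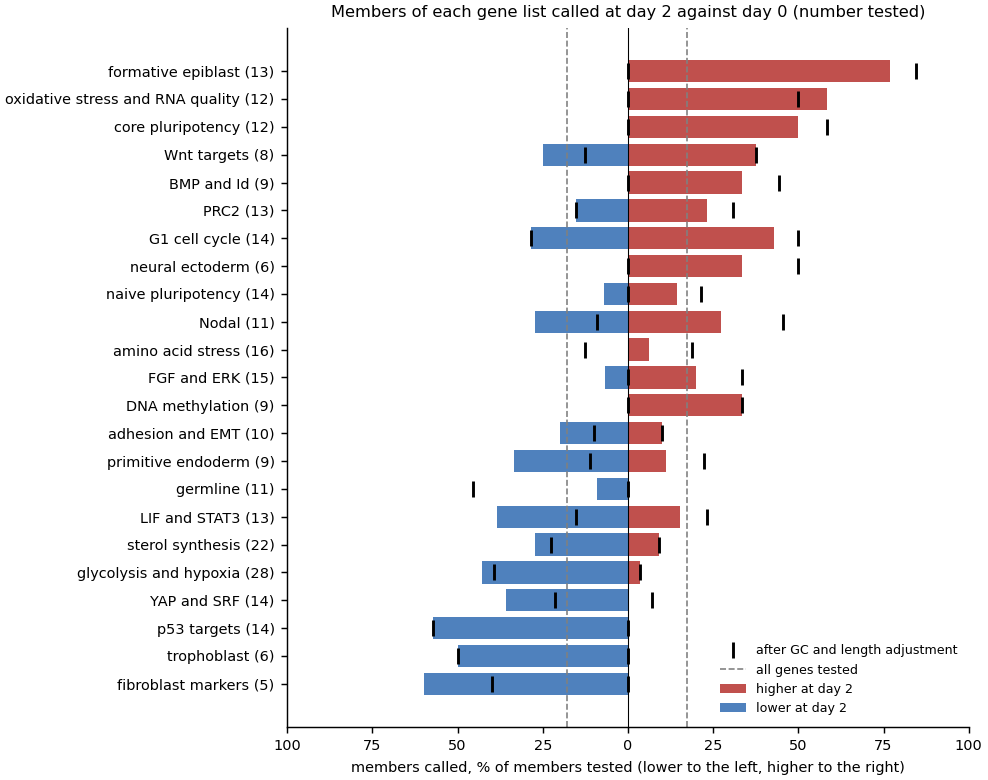
Share of the tested members of each gene list called higher (right) or lower (left) at day 2, in percent, with the number tested in brackets, for lists with at least 5 tested members. Black ticks give the share with GC content and length adjusted, and dashed lines mark 17.3% and 17.9% of all genes tested. Formative epiblast genes lie farthest to the higher side.

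The same genes were set beside E14 ESCs, another wild-type line, which had been directed toward mesoderm or endoderm. Each time had 2 libraries. Undifferentiated libraries with the same number lay closer between these series (median absolute log2 difference 0.102 and 0.0781 over 6228 genes) than the 2 libraries within a series (0.186 and 0.177), so the series are not independent at that time. At 48 h, 45.2% of the genes tested in EBs had both mesoderm libraries above both undifferentiated ones and 23.9% had both below, and in the endoderm series these shares were 40.7% and 26.8%. Of the genes that rose by more than 1 in EBs, 71 of 450 (15.8%) were above and 207 (46.0%) below in the mesoderm series, and 100 of 450 (22.2%) were above and 229 (50.9%) below in the endoderm series. Of the genes that fell by more than 1, 415 of 740 (56.1%) were above and 152 (20.5%) below in the mesoderm series, and 286 of 742 (38.5%) and 236 (31.8%) in the endoderm series. Klf4 had 185 and 130 CPM in undifferentiated cells of the endoderm series and 9.22 and 14.8 at 48 h, and in the mesoderm series it went from 169 and 128 to 63.6 and 71.5. Cdkn1a, which fell in EBs, had 17.3 and 16.2 CPM in undifferentiated cells of the endoderm series and 63.9 and 43.3 at 48 h, and in the mesoderm series both 48 h libraries (the higher at 57.7) were above both undifferentiated ones (17.6 and 16.8). Dnmt3b, which rose in EBs, went from 103 and 84.7 to 687 and 508 CPM in the endoderm series and from 103 and 92.0 to 185 and 165 in the mesoderm series. These values come from other cells, media, and libraries (total RNA by the labels, against polyA RNA in EBs) and are set side by side with no test.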

How the data were processed

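Bulk polyA RNA of 3 wild-type lines was sequenced at days 0, 2, 4, and 7. The submitters' processing notes name CASAVA, Bowtie2, HTSeq, Salmon, and DESeq2 without versions, and the build is mm10 (GRCm38). The deposited EB values are a signal per gene, read counts that the authors divided by 1 DESeq2 size factor per column, here called normalized reads. Multiplied back, 100.0% of values were whole reads within 0.02, and these recovered reads went into the count tests. For the E14 series the authors deposited estimated counts from Salmon, converted here to CPM.

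Of 46 EB columns, the 23 wild-type ones were used, and the mean of a line's columns on 1 day stood for the sample. Of 26007 genes, 25816 matched a GENCODE vM21 symbol. Genes with at least 10 normalized reads in 3 of 6 samples were tested with limma 3.58.1 (trend) on log2(mean + 2) in R 4.3.3, so fold changes of low genes are understated. The line was the block: samples of a line deviated together (r = 0.60, 0.79, and 0.57 across genes for J1, JM8, and Pcl1-3 wt, and -0.48 to -0.15 between lines). On simulated data of the same design with 12709 genes, 64 of 100 genes changed by 1 and 96 of 100 changed by 2 on the log2 scale were recovered, with 11 false calls. No other gene was changed there, noise was independent between samples, and no GC or length trend was simulated. These rates may therefore not hold for the real comparison. The duplicates are technical by the study's methods, so p-values of the fit with 3 lines draw on the spread of the day change between lines. In this fit and in those without 1 line they rest mostly on variance pooled over genes. The fit with 3 lines had 6.363 prior against 2 residual degrees of freedom. Alternatives were edgeR 4.0.16, DESeq2 1.42.0, TMM scaling, other pseudocounts, filters, columns, and samples, and, added after seeing the data, the last column of each sample and an adjustment of each sample for GC content and length of the longest transcript (natural splines, 4 df each). Named genes were the 10 that rose and the 10 that fell most among called genes with a mean of at least 50 reads on the higher day and 1 direction in 3 lines, up to 4 called members and defining genes of each list, and the 5 genes that differed most between lines. Some genes that the rule names are not reported here. The part, the 26 lists, and these rules were chosen with earlier results of these data known. Figures were drawn with matplotlib 3.10.9.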

Additional observations from a re-analysis of the deposited data

Results flagged for a closer look

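The 5 genes whose change differed most between the lines were 4 pseudogenes and 1 histone gene with near-identical copies, between which reads may be split. In 4 of them 1 line rose and another fell by more than 1 on the log2 scale. The log2 ratio of day 2 to day 0 of Gpx4-ps2 was -8.01 in J1, 0.09 in JM8, and 1.11 in Pcl1-3 wt. That of Gm28900 was 5.80, 0.00, and -3.23, that of Hist1h2br 2.19, 7.45, and -1.28, and that of Cbx3-ps6 -2.35, -0.15, and 6.34. The fifth, Gm8203, was listed at 0 in Pcl1-3 wt at day 0 and at 653 normalized reads at day 2, with 255 and 449 in J1. With 1 sample per line and day, the difference between the lines was not tested. Groups of 3 samples are too small for the check of single outlying samples.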

How the results depend on the processing

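Without the replicate block the paired lines lose their pairing and 317 genes were called (178 higher, 139 lower) against 4477, although the fold changes were the same. Of 122 named genes tested, 40 were on the same side of the threshold and 82 lost their call. With all 12 samples in the fit 1926 genes were called (1070 higher, 856 lower), with the first column alone 2837 (1415 and 1422), and with a log2 fold change above 1 required 1231 (457 and 774). Leaving out 1 line gave 2144 to 5659 calls, 1080 to 2957 higher and 1064 to 2702 lower. The fewest came without JM8, where 26 of 122 named genes lost their call. The p-values of these fits, like those of the main fit, rest mostly on variance pooled over genes. Among values that passed the threshold without 1 line, log2 fold changes of Dnmt3l, Gpx4-ps2, and Cbx3-ps6 changed sign: the values ran from -0.33 (without J1) to 0.20 for Dnmt3l, from -3.96 to 0.60 (without J1) for Gpx4-ps2, and from -1.25 (without Pcl1-3 wt) to 3.09 for Cbx3-ps6. Nanog, Klf4, Tbx3, Sox2, Axin2, and Ezh2, none of which passed with 3 lines, also changed sign without 1 line, in fits where they did not pass. The remaining alternatives (edgeR, DESeq2, TMM, pseudocount, filters, the last column, GC content and length) gave 3574 to 4617 calls, and no gene called by both fits had opposite signs under any alternative. The GC and length adjustment ended 12 calls of named genes and made 3, and edgeR, TMM scaling, and a pseudocount of 8 changed none. Causes were not tested. With 3 lines and 2 residual degrees of freedom, a change of 1 on the log2 scale was missed for some genes in simulated data.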

Other observations

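Gene families were counted by symbol, chosen after their values were seen, and are read against the 17.3% of all genes called higher and the 17.9% called lower at day 2. Of 361 tested Zfp genes, many of which encode KRAB zinc finger repressors of transposons, 139 were higher (38.5%) and 18 lower (4.99%) at day 2, with medians of 0.41 in J1, 0.38 in JM8, and 0.25 in Pcl1-3 wt. Their median GC content was 43.6%, where the median over all genes lay above 0, and with GC content and length adjusted 120 were higher and 18 lower. Of 38 proteasome subunit genes (Psm), 24 were higher (63.2%) and none lower, and 21 and none after the adjustment. Of 75 genes of mitochondrial ribosomal proteins, 43 were higher (57.3%) and none lower, and 38 and none after it. Of 78 cytosolic ribosomal protein genes, 13 were higher (16.7%, near the share over all genes) and none lower, and 5 and 1 after the adjustment, with medians of -0.14 in J1 and 0.69 in Pcl1-3 wt.

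Of 19 collagen genes, 9 were lower (47.4%) and none higher at day 2, and 4 and 1 after the adjustment. Of 31 kinesin genes, 12 were lower (38.7%) and none higher, and 4 and 1 after it. Of 13 mitochondrially encoded genes, 8 were higher (61.5%) and none lower, and 3 and 1 after it, with medians of 0.90 in J1, 1.73 in JM8, and 0.67 in Pcl1-3 wt.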
